A study of Homo sapiens with 6 samples.

Results

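The transcripts of the beta-catenin complex and of the genes it controls were examined in DLD-1 cells with and without DKK1. The members were fixed by name as 36 genes, chosen with earlier results of these data known. A member was measured where a probe set of the array was paired with its symbol alone. This held for 33 of the 36, among 18404 genes named in this way, and each of the 33 had a single probe set. They comprised 16 pathway components and 17 target genes. TCF7, EPHB2 and TDGF1 were not analysed here.

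DLD-1 cells derive from a human colorectal adenocarcinoma, carry a mutated APC and, according to the study, make no DKK1 protein of their own. For DLD-1/DKK1, a lentivirus delivered a tagged DKK1 gene under a promoter switched on by doxycycline, together with a green fluorescent reporter, and DLD-1/Mock cells received the vector without DKK1. Both groups received doxycycline for a day, so that the drug is shared by the groups. Its dose was 10 mg/ml by the labels and the same figure in micrograms per ml by the methods of the study. Each group was transduced with its own virus, so that a difference between the transduced populations cannot be told apart from an effect of DKK1. The sources used here do not say whether the 3 dishes per group shared a transduction. Each dish was measured on 1 whole-transcript array with 32321 probe sets, in log2 expression values.

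In the canonical Wnt pathway, a destruction complex of APC, AXIN and the kinases GSK3 and casein kinase 1 marks beta-catenin for degradation. A Wnt ligand bound to Frizzled and LRP receptors halts this complex through Dishevelled, beta-catenin then accumulates, and in the nucleus it joins TCF/LEF factors and the co-activators BCL9 and Pygopus to switch on target genes. In the intestine these targets maintain crypt stem cells, and loss of APC switches them on without a ligand in most colorectal cancers. DKK1 inhibits the pathway outside the cell at the LRP co-receptors, upstream of APC. The comparison therefore asked whether components or targets differ when DKK1 is expressed in cells with mutated APC.

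The log2 value of DKK1 was 5.01 to 5.74 in the DLD-1/Mock arrays and 12.30 to 12.38 in the DLD-1/DKK1 arrays. This matched the labels. Across all probe sets, 28 passed a limma adjusted p of 0.05. The DLD-1/Mock array 2 stood apart, with correlations to the others of at most 0.9969, while pairs without it had at least 0.9973. Of 10 colorectal epithelial markers, 9 lay at percentiles 64.8 (LGALS4) to 98.8 (KRT8 and KRT18) of brightness, and KRT20, a marker of differentiated colonocytes, lay at 32.8. The 6 fibroblast markers lay at percentiles 7.09 (LUM) to 57.7 (COL1A1), the 4 measured leukocyte markers at 9.83 (PTPRC) to 56.6 (CD68) and the 3 endothelial markers at 27.8 (PECAM1) to 41.7 (CDH5). The leukocyte markers were summed as linear values, so that the brighter CD68 and CD14 weigh most. The log2 of this sum was 8.28 to 8.41 in DLD-1/Mock and 8.09 to 8.15 in DLD-1/DKK1. CD14 and CD68 were lower in the latter at an unadjusted limma p of 0.0117 and 0.00356 (limma adjusted p = 0.462 and 0.345). PTPRC and CD3E had differences of 0.00 and -0.05 with overlapping groups. The summed level of the fibroblast markers, taken in the same way, was 8.88 to 9.10 in DLD-1/Mock and 8.83 to 8.96 in DLD-1/DKK1. That of the endothelial markers, all 3 with differences below 0, was 7.25 to 7.41 and 7.23 to 7.27. The part of these differences in the values below was not tested.

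No member passed the threshold. Of the 33 members, 0 had a limma adjusted p under 0.05, against 0.0866% of all probe sets and 0.187% of the named genes above the median brightness. At an unadjusted limma p under 0.05 there were 5 members (15.2%), against 9.23% of all probe sets and 11.5% of those named genes. TCF7L2, NOTUM and LGR5 had lower values in DLD-1/DKK1, and CD44 and EPHB3 had higher ones. The 2 higher members stand against 4.02% of all probe sets and 6.64% of the brighter named genes, and the 3 lower ones against 5.21% and 4.9%. The median log2 difference of the members was 0.004, with 17 above 0 and 16 below, while that of all probe sets was -0.006 with 46.9% above 0 and that of the named genes above the median brightness 0.011 with 56% above 0. Centring each array on its median moved the median of all probe sets to 0.046 and that of the members to 0.057.

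The intervals show, gene by gene and with the deposited scaling, how large a change these arrays leave possible. They do not hold jointly for all 33 members, and intervals under other scalings are not given. The 95% intervals of 30 members lay within a 1.2-fold change in either direction. The exceptions were TCF7L2, NOTUM and PROX1, and the outermost bound of any member was a change of 1.31-fold, for NOTUM. All 33 members lay above the median brightness of the array, as did 61.2% of the named genes, at percentiles from 58.3 to 98.9. Their median residual SD between dishes was 0.0437, against 0.0587 for the named genes above the median brightness. Because array values compress differences, a fold here is a ratio of array values.

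**Figure D1:**
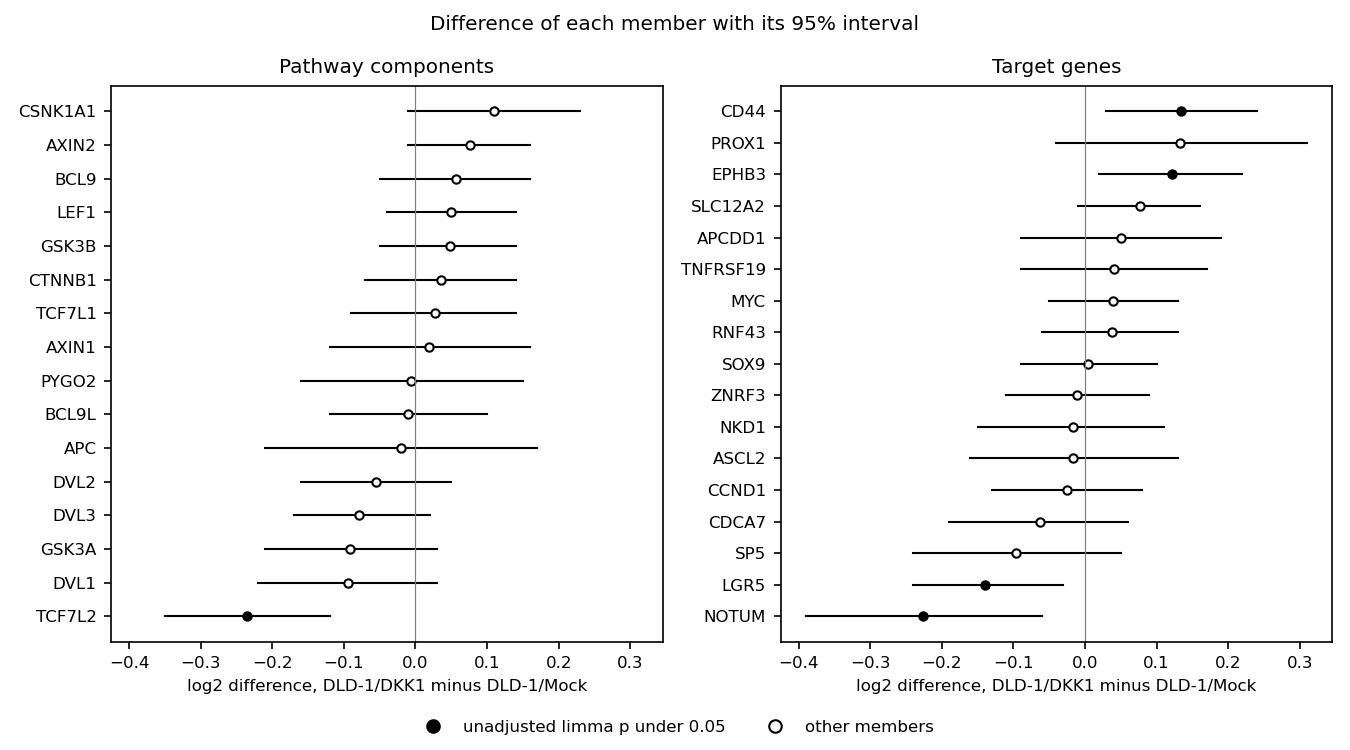
Log2 difference of DLD-1/DKK1 minus DLD-1/Mock (horizontal axis) for the 16 measured pathway components (left) and the 17 target genes (right), with points for the limma estimate, whiskers for its 95% interval and filled points for an unadjusted p under 0.05, 3 arrays per group. TCF7L2 (-0.24) and NOTUM (-0.23) lie lowest and CD44 (0.13) lies highest among the targets, and most intervals cross 0.

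CTNNB1 encodes beta-catenin itself, the co-activator that also links cadherins to the cytoskeleton. Its log2 values were 12.45, 12.38 and 12.47 in DLD-1/Mock and 12.49, 12.48 and 12.43 in DLD-1/DKK1. The groups overlapped. The log2 difference was 0.04 with a 95% interval of -0.07 to 0.14 (limma adjusted p = 0.805). These are transcript values, and beta-catenin is controlled mainly through the stability of its protein, which was not measured by the arrays.

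The destruction complex was represented by 6 genes, with 4 log2 differences above 0 and 2 below. None had an unadjusted p under 0.05. APC, the scaffold that is mutated in this line, had log2 values of 7.63, 7.42 and 7.73 in DLD-1/Mock and 7.54, 7.60 and 7.57 in DLD-1/DKK1. The DLD-1/Mock arrays of APC lay on both sides of all 3 DLD-1/DKK1 arrays, and its difference was -0.02 with an interval of -0.21 to 0.17 (limma adjusted p = 0.947). The sign of this value turned under quantile normalisation, median centring and cyclic loess. The second scaffold, AXIN1, had a difference of 0.02.

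AXIN2 is a scaffold like AXIN1 and at the same time a widely used target of beta-catenin, through which the pathway restrains itself. Its values were 10.99, 11.00 and 11.02 in DLD-1/Mock and 11.08, 11.07 and 11.10 in DLD-1/DKK1. Every array with DKK1 thus exceeded every array without it, and the spread within each group was 0.01 (SD, n = 3). The difference was 0.08 with an interval of -0.01 to 0.16, and did not pass (limma adjusted p = 0.57). The residual SD of AXIN2 was 0.0141, against a median of 0.0587 for the named genes above the median brightness, and limma draws such values towards those of the other probe sets. The unadjusted p of AXIN2 was 0.076 with this moderation and 0.00266 without it, and the adjusted p without it was 0.341 in limma. Median centring, which moves every difference by the same amount, took the difference of AXIN2 to 0.13. Quantile normalisation and cyclic loess both took it to 0.06.

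The kinases of the complex differed in sign. CSNK1A1, the casein kinase that primes beta-catenin for GSK3, had values of 11.04, 10.89 and 10.95 in DLD-1/Mock and 11.06, 11.07 and 11.09 in DLD-1/DKK1. The groups did not overlap, and the gap between them was small beside the spread of the DLD-1/Mock arrays (SD 0.08, n = 3). The difference was 0.11 with an interval of -0.01 to 0.23 (limma adjusted p = 0.561). GSK3B, which phosphorylates beta-catenin, had 10.97, 10.92 and 10.97 in DLD-1/Mock and 11.03, 10.99 and 10.99 in DLD-1/DKK1. Its groups did not overlap either, and its difference was 0.05 with an interval of -0.05 to 0.14 (limma adjusted p = 0.707). The paralogue GSK3A had a difference of -0.09 with overlapping groups.

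The 3 Dishevelled genes, whose products relay the signal from Frizzled to the destruction complex, had differences of -0.09 for DVL1, -0.08 for DVL3 and -0.05 for DVL2. None had an unadjusted p under 0.05, and their limma adjusted p values were 0.603, 0.585 and 0.709. The groups of DVL1 and DVL3 did not overlap, and those of DVL2 did. Median centring moved them to -0.04 for DVL1, -0.03 for DVL3 and -0.0024 for DVL2, while quantile normalisation and cyclic loess gave -0.11, -0.10 and -0.05.

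Among the co-activators, BCL9, which bridges beta-catenin to Pygopus, had a difference of 0.06. Its relative BCL9L had -0.01 and PYGO2, the Pygopus gene measured here as a member, also -0.01. The groups of all 3 overlapped. The signs of BCL9L and PYGO2 turned to positive after median centring.

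The TCF/LEF factors bind DNA through an HMG box and carry beta-catenin to target genes. TCF7L2, the main factor of this family in colonic epithelium, had the largest difference of any member. Its log2 values were 10.89, 10.93 and 11.02 in DLD-1/Mock and 10.71, 10.70 and 10.73 in DLD-1/DKK1. The groups lay well apart, with a mean of 10.95 ± 0.07 against 10.71 ± 0.01 (SD, n = 3). The difference was -0.24 with an SE of 0.05 and an interval of -0.35 to -0.12, or 0.85-fold. Its unadjusted p was 0.00198 and its adjusted p 0.28 with limma, while the exact permutation test (two-sided) gave 0.1, its smallest possible p with 3 arrays per group. With each array left out in turn the difference of TCF7L2 ran from -0.26 to -0.20.

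LEF1, which is itself switched on by beta-catenin in many cells, had 11.65, 11.64 and 11.70 in DLD-1/Mock and 11.70, 11.73 and 11.72 in DLD-1/DKK1. The groups met at 11.70, and the difference was 0.05 with an interval of -0.04 to 0.14 (limma adjusted p = 0.701). TCF7L1, which acts mostly as a repressor, had 7.44, 7.51 and 7.52 in DLD-1/Mock and 7.58, 7.48 and 7.49 in DLD-1/DKK1. Its groups overlapped, and its difference was 0.03 (limma adjusted p = 0.868). Whether TCF7L2 differed from the other factors was not tested.

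**Figure D2:**
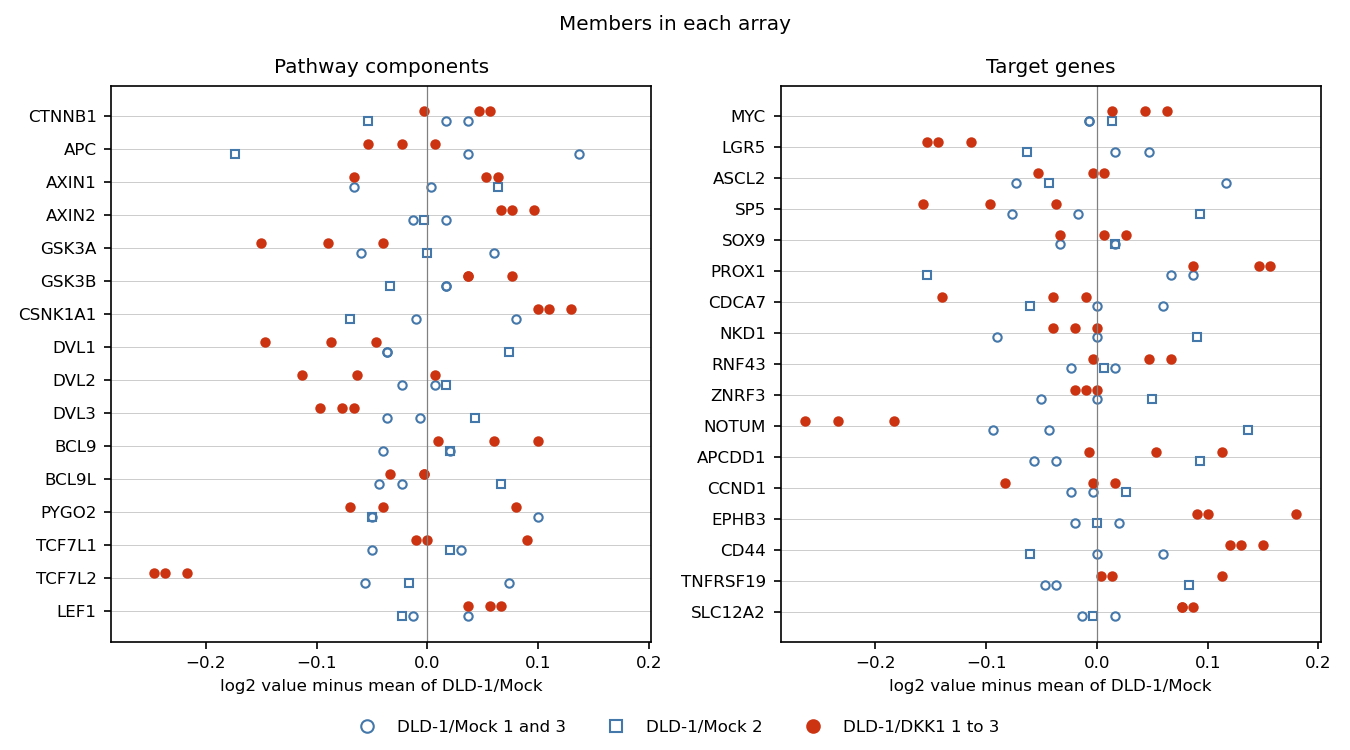
Log2 value of each member in each array minus its mean over the DLD-1/Mock arrays (horizontal axis), for the pathway components (left) and the target genes (right), with open blue symbols for the 3 DLD-1/Mock arrays (squares for array 2) and filled red points for the 3 DLD-1/DKK1 arrays. The red points of TCF7L2, NOTUM and LGR5 lie to the left of all blue symbols and those of CD44, EPHB3 and AXIN2 to the right, while most members mix.

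The targets were taken first by stem cell and transcription factor genes. MYC, which drives growth, had 11.81, 11.83 and 11.81 in DLD-1/Mock and 11.83, 11.88 and 11.86 in DLD-1/DKK1. The groups touched, and the difference was 0.04 with an interval of -0.05 to 0.13 (limma adjusted p = 0.745). LGR5, the R-spondin receptor that marks crypt stem cells, had 12.30, 12.22 and 12.33 in DLD-1/Mock and 12.13, 12.14 and 12.17 in DLD-1/DKK1. The 3 arrays with DKK1 were the lowest of the 6. The difference of LGR5 was -0.14 with an SE of 0.04 and an interval of -0.24 to -0.03, or 0.91-fold, at an unadjusted p of 0.0171 and an adjusted p of 0.482 with limma.

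ASCL2, a transcription factor of the same stem cells, had 9.37, 9.40 and 9.56 in DLD-1/Mock and 9.44, 9.45 and 9.39 in DLD-1/DKK1. SOX9, a factor of the crypt base, had 11.32, 11.37 and 11.37 in DLD-1/Mock and 11.32, 11.38 and 11.36 in DLD-1/DKK1. Both pairs of groups overlapped, and the intervals were -0.16 to 0.13 for ASCL2 and -0.09 to 0.10 for SOX9 (limma adjusted p = 0.938 and 0.979). The difference of ASCL2, at -0.02, turned positive after median centring, and that of SOX9 turned negative under quantile normalisation and cyclic loess.

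PROX1, a homeobox factor of colorectal tumours, had 8.22, 7.98 and 8.20 in DLD-1/Mock and 8.22, 8.28 and 8.29 in DLD-1/DKK1. The groups met at the value of DLD-1/Mock 1, and DLD-1/Mock 2 lay below the rest. The difference was 0.13 with an interval of -0.04 to 0.31 (limma adjusted p = 0.605), and leaving out 1 array moved it between 0.06 (without DLD-1/Mock 2) and 0.18. SP5, a zinc finger factor and direct beta-catenin target, had 8.53, 8.64 and 8.47 in DLD-1/Mock and 8.39, 8.45 and 8.51 in DLD-1/DKK1. Its groups overlapped, with a difference of -0.10 and an interval of -0.24 to 0.05 (limma adjusted p = 0.635). The difference of SP5 was -0.05 without DLD-1/Mock 2 and -0.04 after median centring. CDCA7, a gene also induced by MYC, had a difference of -0.06 with overlapping groups.

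Promoter windows were searched for the letters of the TCF/LEF core, to show which members carry them close to the start site. Each RefSeq window (GRCh38.p14) held 250 bases before and 50 after a start site, and 24 of the 36 listed genes had at least 1 window. The core CTTTGAT, read on both strands, stood in 1 of the 24 genes, SP5, against 3.18% of all genes in the table. The shorter CTTTGA, which lies within it and was chosen after the first search, stood in 3 of 24 genes (12.5%), namely SP5, CDCA7 and CSNK1A1, against 15.5% of all genes. The site of CSNK1A1 lay after the start site. The windows of the members had a median GC content of 67.7%, against 58.7% for all windows. The stretches with more than 1 match are shown for SP5, at chr2:170715180-170715269 on the plus strand, and CDCA7, at chr2:173354660-173354718 on the plus strand, both before the start site, with CTTTGA and its reverse complement TCAAAG in capitals.
SP5: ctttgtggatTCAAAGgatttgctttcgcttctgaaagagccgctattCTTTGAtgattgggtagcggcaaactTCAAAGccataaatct
CDCA7: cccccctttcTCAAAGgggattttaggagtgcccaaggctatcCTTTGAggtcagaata
SP5 held 3 matches within these 90 bases, and CDCA7 held 2 within 59. Both genes had negative differences whose intervals included 0. A match describes the letters only and is no evidence of binding in these cells.

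The measured targets include 5 feedback inhibitors of the pathway. NOTUM, a secreted enzyme that removes the lipid from Wnt ligands, had log2 values of 7.57, 7.75 and 7.52 in DLD-1/Mock and 7.38, 7.35 and 7.43 in DLD-1/DKK1. The groups did not overlap, and DLD-1/Mock 2 lay highest. The difference was -0.23 with an SE of 0.07 and an interval of -0.39 to -0.06, or 0.85-fold, at an unadjusted p of 0.0136 and an adjusted p of 0.466 with limma. With each array left out in turn it ran from -0.27 to -0.16.

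The other feedback inhibitors had smaller values. RNF43 and ZNRF3, the membrane ligases that remove Frizzled receptors, had differences of 0.04 and -0.01. NKD1, which binds Dishevelled, had -0.02, and APCDD1, a membrane inhibitor that binds Wnt and LRP5, had 0.05. All 4 pairs of groups overlapped, and their limma adjusted p values ran from 0.763 to 0.94. The signs of ZNRF3 and NKD1 turned positive after median centring.

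The remaining targets were surface proteins and cyclin D1. CD44, the hyaluronan receptor of crypt and tumour cells, had 11.79, 11.73 and 11.85 in DLD-1/Mock and 11.94, 11.92 and 11.91 in DLD-1/DKK1. The groups did not overlap, and the arrays with DKK1 were the higher ones. The difference was 0.13 with an SE of 0.04 and an interval of 0.03 to 0.24, or 1.10-fold, at an unadjusted p of 0.0209 and an adjusted p of 0.489 with limma. EPHB3, an ephrin receptor that positions cells along the crypt, had 9.32, 9.34 and 9.36 in DLD-1/Mock and 9.43, 9.52 and 9.44 in DLD-1/DKK1. Its groups did not overlap either. The difference of EPHB3 was 0.12 with an SE of 0.04 and an interval of 0.02 to 0.22, or 1.09-fold, at an unadjusted p of 0.0254 and an adjusted p of 0.509 with limma.

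SLC12A2, the sodium, potassium and chloride cotransporter of crypt cells, had 12.89, 12.87 and 12.86 in DLD-1/Mock and 12.95, 12.96 and 12.95 in DLD-1/DKK1. The groups did not overlap and were as tight as those of AXIN2, with an SD of 0.01 in each. The difference was 0.08 (limma adjusted p = 0.568), and the unadjusted limma p moved from 0.0727 to 0.00159 without moderation. Median centring took the difference of SLC12A2 to 0.13, while quantile normalisation and cyclic loess both took it to 0.06. TNFRSF19, a receptor of stem cells that is also known as TROY, had 0.04 with overlapping groups. CCND1, the gene of cyclin D1, had 11.56, 11.59 and 11.54 in DLD-1/Mock and 11.48, 11.58 and 11.56 in DLD-1/DKK1. The groups of CCND1 overlapped, with an interval of -0.13 to 0.08 (limma adjusted p = 0.867), and its sign turned after median centring. Of these 5 surface and cycle targets, 4 had differences above 0 with the deposited values.

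**Figure D3:**
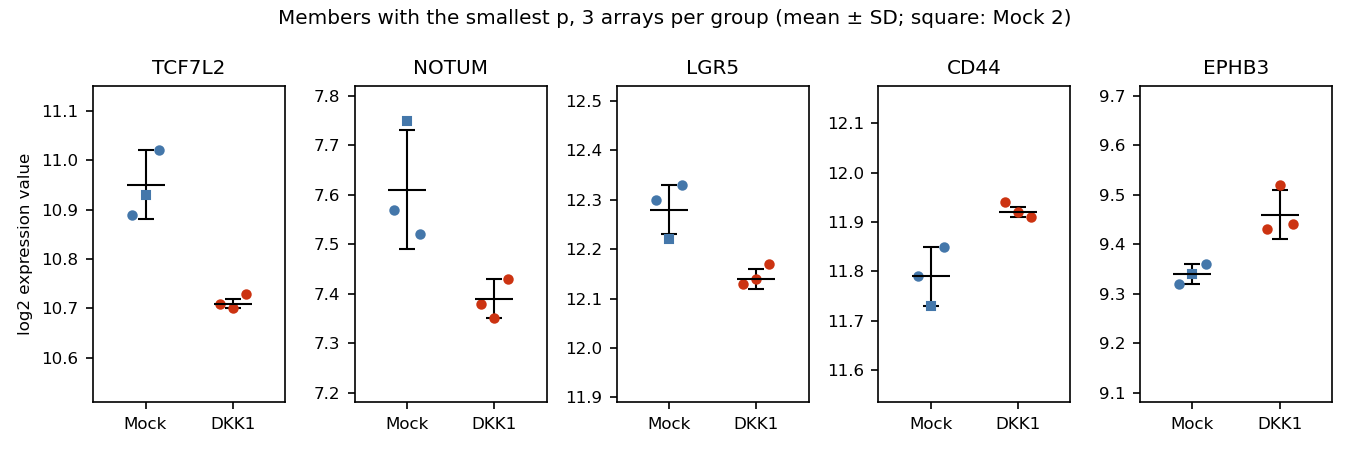
Log2 expression value (vertical axes, each spanning the same width) of the 5 members with an unadjusted limma p under 0.05 in the DLD-1/Mock (blue) and DLD-1/DKK1 (red) arrays, with a bar and whiskers for the mean ± SD (n = 3) and a square for DLD-1/Mock 2. The groups do not overlap in any of the 5 genes, with TCF7L2, NOTUM and LGR5 lower and CD44 and EPHB3 higher in DLD-1/DKK1.

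Components and targets were then compared by their counts. The median difference was 0.006 over the 16 components, with 8 above 0, and 0.004 over the 17 targets, with 9 above 0. The groups did not overlap for 11 of the 33 members (33.3%), against 16.5% of all probe sets and 22.8% of the named genes above the median brightness. They were 6 higher (AXIN2, GSK3B, CSNK1A1, EPHB3, CD44 and SLC12A2), against 7.91% of all probe sets and 13.9% of the brighter named genes, and 5 lower (TCF7L2, DVL1, DVL3, LGR5 and NOTUM), against 8.55% and 8.91%. Quantile normalisation gave 7 higher and 5 lower, and cyclic loess 5 and 5, beside 15% and 15.3% of all probe sets in either direction. Median centring, which moves every difference by the same amount, gave 13 higher and 2 lower, beside 21% of all probe sets in either direction.

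Within the arrays the members moved little as a group. The median of the members relative to the DLD-1/Mock mean was -0.023, 0.007 and 0.014 in the DLD-1/Mock arrays and -0.003, 0.010 and -0.001 in the DLD-1/DKK1 arrays. The DLD-1/DKK1 medians lay within the range of the DLD-1/Mock medians. DLD-1/Mock 2 was farthest from the middle value of its group for 15 of the 33 members, and DLD-1/DKK1 1 for 18.

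Other genes of the pathway were taken from a pair of lists of intracellular Wnt genes and of further targets. These lists too were chosen with earlier results of these data known. Of 31 measured intracellular genes, no gene had a limma adjusted p under 0.05 (0 of 31) and 1 (3.23%) had an unadjusted p under 0.05, against 9.23% of all probe sets and 11.5% of the named genes above the median brightness. This was TLE4, a co-repressor of the Groucho family that binds TCF/LEF factors, with 9.63, 9.56 and 9.65 in DLD-1/Mock and 9.77, 9.84 and 9.82 in DLD-1/DKK1. Its groups did not overlap, and its difference was 0.20 (limma adjusted p = 0.343). Over the whole list the groups did not overlap for 8 of 31 (25.8%), 5 higher and 3 lower. The share in either direction was 16.5% of all probe sets and 22.8% of the named genes above the median brightness. For higher values it was 7.91% and 13.9%, and for lower values 8.55% and 8.91%. Of the 31 genes, 26 lay above the median brightness themselves. The median of the list was 0.015, with 17 above 0 and 14 below.

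Of 29 measured further targets, 0 had a limma adjusted p under 0.05 and 6 had an unadjusted p under 0.05, all of them higher in DLD-1/DKK1 (20.7%, against 4.02% of all probe sets and 6.64% of the named genes above the median brightness in that direction). The 4 with the smallest p were ETS2, a transcription factor, with a difference of 0.19 (limma adjusted p = 0.289), BAMBI, a pseudoreceptor of TGF-beta signalling, with 0.17 (0.411), PTPN13, a tyrosine phosphatase, with 0.17 (0.439), and MET, the receptor of hepatocyte growth factor, with 0.14 (0.483). Their groups did not overlap. Over the whole list the groups did not overlap for 12 of 29 (41.4%), 11 higher and 1 lower. The share was 16.5% of all probe sets and 22.8% of the named genes above the median brightness, in either direction. For higher values it was 7.91% and 13.9%, and for lower values 8.55% and 8.91%. Of the 29 genes, 21 lay above the median brightness themselves. The median of this list was 0.034, with 20 above 0 and 9 below, against 0.004 for the 17 targets among the members. The difference between these lists was not tested. Other scalings and left-out arrays were run for the members and DKK1 only, not for either list of other genes.

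**Figure D4:**
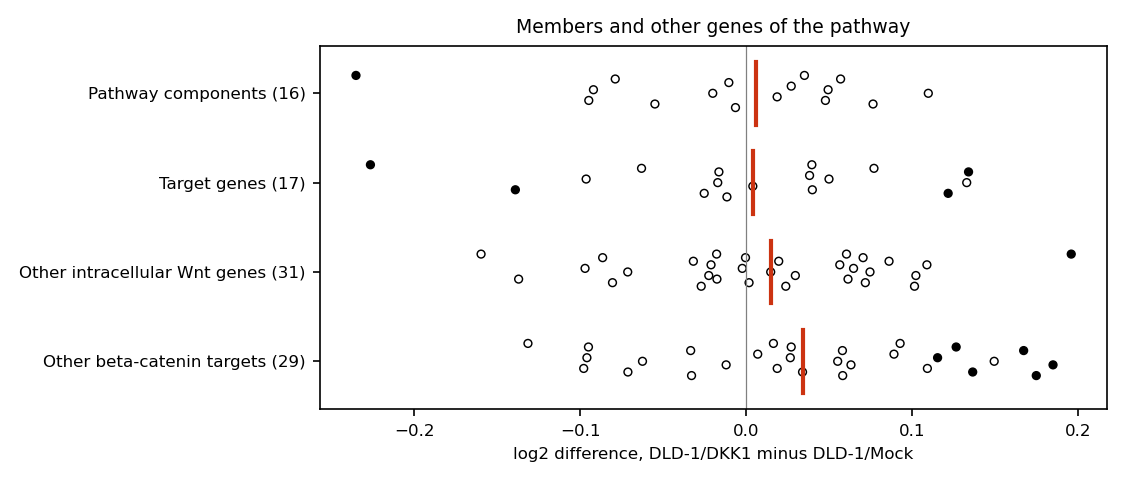
Log2 difference of DLD-1/DKK1 minus DLD-1/Mock (horizontal axis) for every measured gene of 4 lists, with points for genes, filled points for an unadjusted limma p under 0.05, red bars for medians and gene numbers in brackets. The medians are 0.006, 0.004, 0.015 and 0.034 from top to bottom, and no gene lies beyond -0.24 or 0.20.

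The 5 members with the smallest p kept their sign under every alternative run on them, and none passed in any. Their groups do not overlap, so that leaving out an array could not turn the sign. The filters, priors, replicate block and fit without moderation left the estimates unchanged. The difference of LGR5 ran from -0.17 to -0.12 with 1 array left out, that of CD44 from 0.11 to 0.16 and that of EPHB3 from 0.09 to 0.14. Median centring took LGR5 from -0.14 to -0.09 and its unadjusted limma p from 0.0171 to 0.145, while the other 4 stayed under 0.05 at that scaling. Without DLD-1/Mock 2 the members still numbered 2 higher and 3 lower at an unadjusted limma p under 0.05. In either direction, 7.81% of all probe sets had such a p. Without DLD-1/DKK1 2 there were 0 higher and 2 lower members, TCF7L2 and NOTUM, beside 6.17% of all probe sets.

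**Figure D5:**
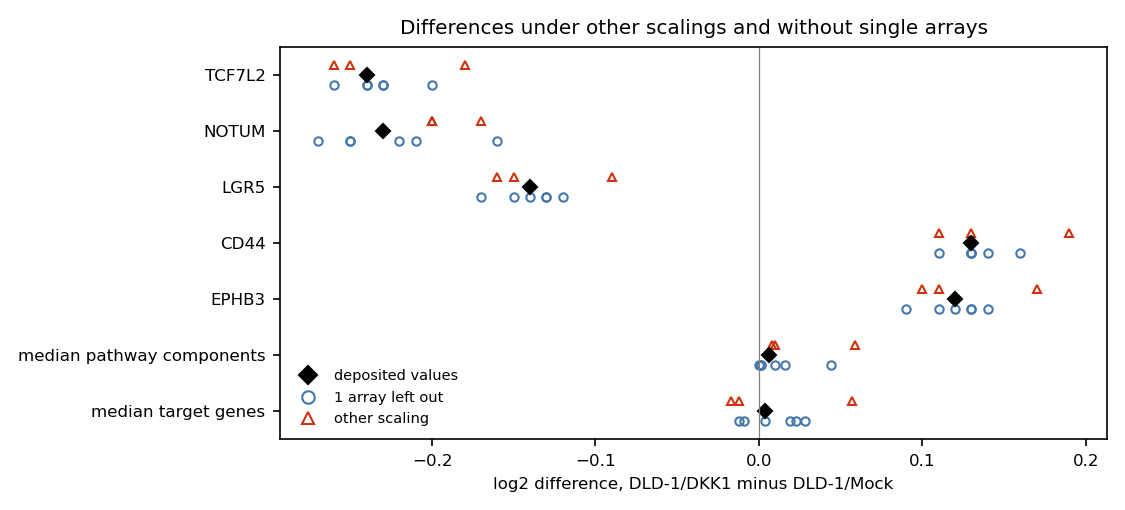
Log2 difference of DLD-1/DKK1 minus DLD-1/Mock (horizontal axis) for the 5 members with the smallest p and for the medians of the components and targets, with a diamond for the deposited values, circles for 1 array left out and triangles for quantile normalisation, cyclic loess and median centring. The single genes stay on their side of 0, while the median of the targets runs from -0.017 to 0.057.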

How the data were processed

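Affymetrix Human Gene 1.0 ST arrays were run on RNA of 6 dishes, 3 per group. The authors made the deposited log2 values from the raw scans with the robust multichip average method. It equalises the arrays at the level of single probes and would hide a change shared by most transcripts. The sources used here give no versions for this step. The medians of the deposited values still differed, at 6.82, 6.86 and 6.82 in DLD-1/Mock and 6.79, 6.76 and 6.81 in DLD-1/DKK1. Median centring sets these medians equal. Of the 32321 probe sets, 19158 carried 1 gene symbol in the platform annotation, 1388 several and 11775 none. Of those with 1 symbol, 19128 were matched by gene number to the RefSeq genes (GRCh38.p14), whose symbols were then used.

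Groups came from the titles. A linear model over all probe sets was fitted with limma 3.58.1 in R 4.3.3 (two-sided, default prior, 4 residual and 2.56 prior degrees of freedom), with Benjamini and Hochberg adjustment over all of them. Errors reflect differences among the dishes of a group, and 3 arrays per group limit precision. The steps were tested on simulated data. Array values and statistics were given for members with an unadjusted p under 0.05, the 8 largest differences and a fixed set of core genes. They were also given for SLC12A2, which met none of these criteria. Members and lists were chosen with earlier results of these data known. Alternatives were other scalings, filters and priors, array weights, the replicate number as a block and each array left out. Every member has a single probe set, so averaging probe sets changed nothing. The windows of RefSeq promoters were searched by script, and figures drawn with matplotlib 3.10.9.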

Additional observations from a re-analysis of the deposited data

How the results depend on the processing

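Of 33 members, 0 passed in any of 16 alternatives, and 23 kept their sign throughout. Filters, other priors, the fit without moderation, the replicate block and the averaging of probe sets left every estimate unchanged. Signs could therefore turn only under other scalings, array weights and left-out arrays. The 10 that changed sign had absolute differences of at most 0.03. The correlations of same-numbered deviations were 0.10, 0.01 and -0.14, and those of differently numbered ones ran from -0.23 to 0.23. Whether dishes of the groups were handled in pairs was not tested. With the replicate block, members with an unadjusted limma p under 0.05 numbered 0 higher and 3 lower, beside 7.52% of all probe sets. Those counted as higher at that p numbered 5 after median centring and with a trended and robust prior, and 4 in the fit that lacks moderation. The shares of all probe sets at these settings were 11.5%, 9.29% and 8.61%. Leaving out single arrays gave 0 to 2 higher members, with 1 without DLD-1/Mock 1, 1 without DLD-1/DKK1 1 and 0 without DLD-1/DKK1 2. The share of all probe sets was then 5.92% to 9.95%. Lower members numbered 2 to 4 in all alternatives, where the share was 5.92% to 12.6% of the probe sets tested. All these shares count both directions. Members whose groups do not overlap numbered 13 higher and 2 lower after median centring (21% of all probe sets apart). With 1 array left out they numbered 7 to 9 higher and 5 to 8 lower (8 without DLD-1/Mock 1). Fewer arrays make overlap rarer there, with 23.5% to 30.8% of all probe sets apart. The median difference of all members was 0.057 after median centring and 0.022 with array weights, and ran from -0.00049 to 0.031 with 1 array left out. That of the components was 0.059 after median centring and ran from -0.00020 to 0.044. That of the targets was -0.012 under quantile normalisation, -0.017 under cyclic loess, 0.057 after median centring and 0.023 with array weights, and ran from -0.012 without DLD-1/Mock 1 to 0.028 without DLD-1/Mock 2. The DKK1 transcript, at 7.05 without moderation, then had a limma adjusted p of 0.0646, and otherwise passed.

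After median centring, which moves every difference by the same amount, APC turned to 0.03, CCND1 to 0.03, PYGO2 to 0.05, and BCL9L, ASCL2, NKD1 and ZNRF3 to 0.04. APC was 0.01 and SOX9 -0.01 under quantile normalisation, and 0.01 and -0.02 under cyclic loess. Array weights turned BCL9L to 0.01, PYGO2 to 0.0004, NKD1 to 0.02 and ZNRF3 to 0.01. With 1 array left out, APC ran from -0.11 to 0.05, AXIN1 from -0.02 to 0.06, BCL9L from -0.03 to 0.02, PYGO2 from -0.05 to 0.04, TCF7L1 from -0.01 to 0.05, CCND1 from -0.04 to 0.01, ASCL2 from -0.05 to 0.04, NKD1 from -0.06 to 0.03, ZNRF3 from -0.04 to 0.01 and SOX9 from -0.01 to 0.02. For settings other than centring and left-out arrays, the cause was not tested.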
